A study of Homo sapiens with 6 samples.

Results

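The U4 and U6 small nuclear RNA genes were read for ribose methylation in chromatin-associated RNA of HepG2 cells, a human hepatocellular carcinoma line. The members are the 7 genes RNU4-1, RNU4-2, RNU6-1, RNU6-2, RNU6-7, RNU6-8 and RNU6-9, of 62700 annotated in GENCODE v44, and their positions are all table rows inside these genes on the strand of the gene. There were 123 such rows of 176343 under imbalanced dNTP and 171 of 246881 under balanced dNTP. In Nm-mut-seq, the assay used here, reverse transcription with excess dATP copies G, A or C carrying a ribose methyl group so that T is read there, and the mutation ratio is the share of reads at a position that carry T. The group called Treat held 3 libraries reverse transcribed with imbalanced dNTP and the group called Ctrl held 3 with normal, balanced dNTP. All 6 came from the same untreated line with no genetic change, and each replicate's ligated RNA was divided between both reactions, so a library of one group shares its RNA with the library of the same number in the other. The methods call the replicates biological, without saying whether they were separate cultures, so p-values measure the spread between these libraries only. The library preparation removed RNA shorter than the usual cut of the clean-up columns, and both U4 and U6 are shorter than that cut, which limits how well either RNA is sampled.

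U4 and U6 pair with each other in the spliceosome. U6 carries the catalytic core, and U4 holds it inactive until they are unwound. Both RNAs are methylated on riboses at fixed positions, most of them chosen by base pairing with box C/D guide RNAs that bring the methyltransferase fibrillarin. The internal positions known in U4 are C8 and A65, and those in U6 are A47, A53, G54, C60, C62, C63, A70 and C77. They were taken from general knowledge of these RNAs, and the base at each was checked against hg38. The first bases of U4, A1 and G2, are methylated as part of its cap structure and were kept apart.

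The U4 genes are shown because all member rows under imbalanced dNTP lie in them, with the known methylated bases C8 and A65 in capitals (hg38, read 5′ to 3′ on the minus strand, DNA letters). RNU4-2 lies at chr12:120291763-120291903 and RNU4-1 at chr12:120293097-120293237, each a single-exon snRNA gene of 141 bases.
RNU4-2: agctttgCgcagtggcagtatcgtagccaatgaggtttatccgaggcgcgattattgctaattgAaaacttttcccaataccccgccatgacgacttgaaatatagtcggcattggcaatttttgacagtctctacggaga
RNU4-1: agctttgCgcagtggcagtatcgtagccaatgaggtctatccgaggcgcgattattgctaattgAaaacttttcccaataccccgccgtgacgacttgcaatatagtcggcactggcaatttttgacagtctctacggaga

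Counted from the first base, RNU4-1 differed from RNU4-2 at 4 positions, T37C, A88G, A99C and T113C. Reads that cover none of these positions cannot be assigned to one U4 gene, and up to 4 alignments per read were kept. The genes are therefore not independent of each other.

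U6 was not measured in its own genes under imbalanced dNTP. None of the 5 U6 genes had a row there. Under balanced dNTP, RNU6-9 had 5 rows, RNU6-2 and RNU6-7 had 1 each, and RNU6-1 and RNU6-8 had none. RNU6-1, RNU6-2 and RNU6-9 are identical in sequence, and RNU6-7 and RNU6-8 differ from RNU6-1 at T107G. The 7 balanced rows had a depth of 5 to 18 reads and included A47 of RNU6-7 and A70 and G72 of RNU6-9, each with at most 1 read of T in a library. G72 is the site of N2-methylguanosine in U6. No imbalanced ratio stands beside these values.

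In U4, RNU4-2 had rows at 69 of its 101 G, A and C positions under imbalanced dNTP and at 92 under balanced dNTP, and RNU4-1 had 54 and 72 of 103. The imbalanced table lists a position only where at least 1 library had 3 or more reads of T, and the balanced table where at least 1 library had 1. Unlisted positions are thus not positions without reads. A position was counted as called where each replicate had 10 or more reads, 3 or more of them T, and over 3 times the ratio of its balanced library (taken as 0 where unlisted). The spike-in criterion of the study's methods was not applied. Of the 120 member positions with a depth of at least 10, 78 (65%) were called, against 26.7% of all positions listed at that depth. Most U4 positions were deep, and with a depth of at least 100 in each imbalanced library 72 of 96 (75%) were called, against 75.8% of all positions that deep. At matched depth the share of called positions was near the background, and the count is not a result about U4.

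The known position A65 had 6 of 37, 7 of 50 and 7 of 62 reads of T in RNU4-2 under imbalanced dNTP, and 7 of 64, 4 of 37 and 6 of 58 in RNU4-1. The ratio was 13.8% ± 2.47 (SD, n = 3) in RNU4-2 and 10.7% ± 0.31 (SD, n = 3) in RNU4-1. All 6 imbalanced values lay above every balanced value, since the balanced libraries had 12 of 1324, 7 of 805 and 9 of 692 reads in RNU4-2 and 9 of 969, 7 of 571 and 3 of 507 in RNU4-1. With few reads, the single values were imprecise, and the 95% Wilson interval of the first RNU4-2 library ran from 7.65% to 31.1%, counting error only.

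With reads of both genes summed, A65 was 12.1% ± 1.12 (SD, n = 3), which ranked second of the 68 U4 positions with 10 or more reads in each library. The highest was G57, which is not a known methylated position, at 14.6% ± 5.07 (SD, n = 3). G125, C133, A54 and A39 followed among the others, at 10.7% ± 0.99, 8.48% ± 1.59, 7.69% ± 3.80 and 6.16% ± 5.10 (SD, n = 3). A39 and A54 had imbalanced rows in RNU4-2 only. The other known position, C8, had an imbalanced row in RNU4-1 only, with 3 of 42, 0 of 17 and 2 of 19 reads of T, and 1 of 292, 1 of 192 and 0 of 182 under balanced dNTP. Its groups overlapped, although it passed the edgeR test described below (log2 change 4.23 ± 1.63 SE, adjusted p = 0.014). C8 had an imbalanced row only through the 3 reads of T in the first library, so no conclusion rests on that test. The 0 of 17 allows a ratio of up to 18.4% by the Wilson interval.

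The median over the 2 known positions exceeded the median over the 66 others in each library, at 10.0% against 2.05%, 6.32% against 2.76% and 10.7% against 2.08%. The difference was 6.71 ± 2.74 percentage points (SD, n = 3). With 2 known positions, 1 of them resting on 5 reads, this is mainly a statement about A65. G57, G125, C133, A54 and A39 all had higher mean ratios than C8, at 5.89% ± 5.37 (SD, n = 3), and G57 was above A65, so the ratio alone did not separate the known positions from the others.

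**Figure D1:**
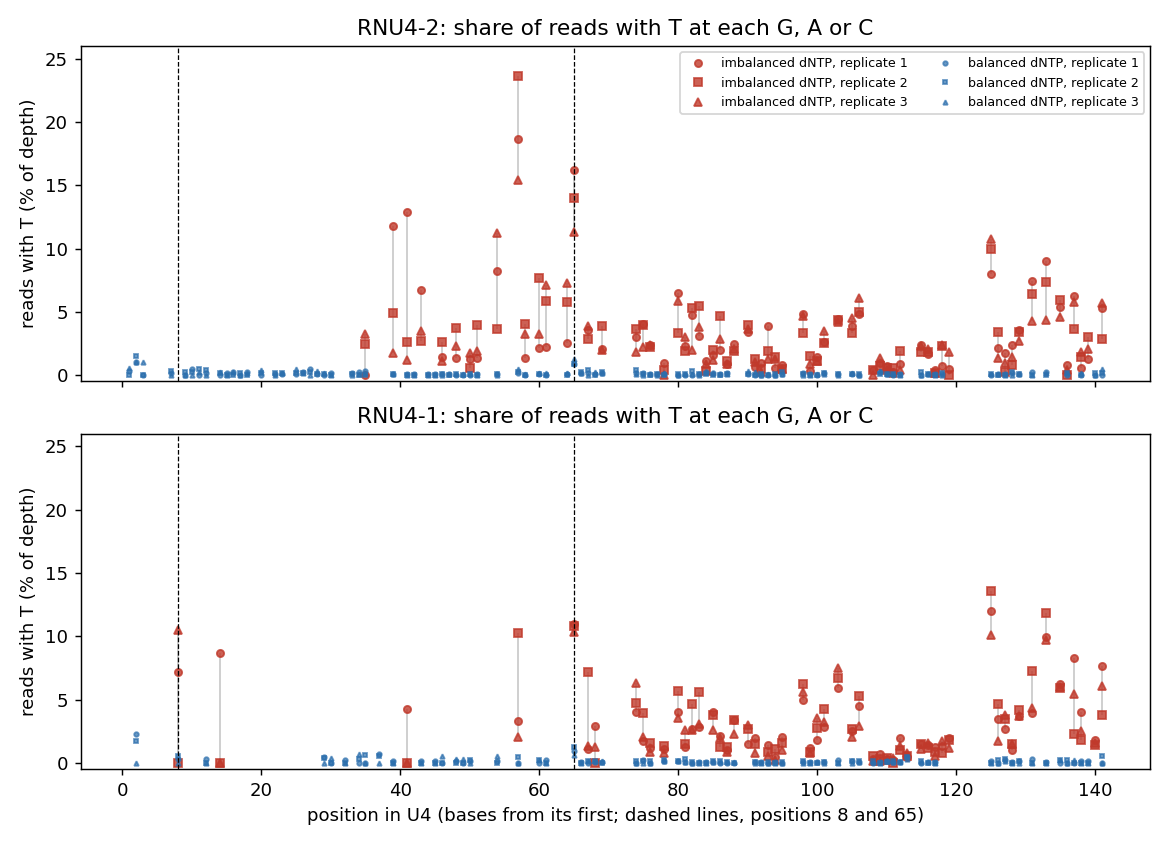
Share of reads with T (% of depth) at each listed G, A or C of RNU4-2 (top) and RNU4-1 (bottom) against the position in U4, for the 3 imbalanced dNTP libraries (red, depth at least 10, grey lines join the libraries) and the 3 balanced dNTP libraries (blue). A65 (right dashed line) sits at 10.3% to 16.2%, and G57 is higher in RNU4-2 than in RNU4-1.

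At G57 the genes differed. RNU4-2 had 14 of 75, 30 of 127 and 19 of 123 reads of T and RNU4-1 had 2 of 61, 4 of 39 and 1 of 49, so every RNU4-2 library lay above every RNU4-1 library, and the difference was 14.1 ± 1.16 percentage points (SD, n = 3). This was the largest difference among the 47 positions measured in both genes, and the next was 4.12. The smallest p that an exact paired permutation test over 3 libraries can give is 0.25, and G57 was named after its values were seen, so no call rests on it. In all, every RNU4-2 library lay above every RNU4-1 library at 8 of the 47 positions, and the reverse held at 12. Over the same positions the mean ratios of the genes had a Pearson r of 0.70 and a Spearman rho of 0.81, given as a description, since the genes share reads.

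Mutated against unmutated reads were tested with edgeR's quasi-likelihood test over all positions listed in both tables at depth of at least 10 in all 6 libraries. Of 107 U4 positions tested, the ratio rose with imbalanced dNTP at 101 (Benjamini-Hochberg adjusted p under 0.05), against 73.9% of 32284 positions overall. It fell at 0, and also at 0 at an unadjusted p under 0.05, by edgeR and by DESeq2. At depth of at least 50 in all 6 libraries, it rose at 93 of 99 U4 positions, against 22348 of 24432 overall. At that depth the shares were close, and the count is not a result about U4. The listing rule itself favours a rise, since an imbalanced row needs 3 or more reads of T in a library and a balanced row needs 1. The median log2 change was 4.77 in U4 and 3.94 over all positions at depth of at least 10, and 4.77 and 4.38 at depth of at least 50. That shift is common to the table, and scaling with TMM factors, which brought the median of all positions to 0.71, left 19 U4 positions higher and 1, C113 of RNU4-1, lower. RNU4-2 has T at position 113, and whether reads of T there came from that gene was not tested. With that scaling 11 of the 101 had a change below 0, none of them called. The largest changes were at G125, with log2 changes of 7.46 ± 0.48 (SE) in RNU4-1 and 7.22 ± 0.51 in RNU4-2. A65 changed less, by 3.71 ± 0.75 (SE) in RNU4-1 and 3.93 ± 0.69 in RNU4-2, close to the median of the whole table and below that of U4, since its balanced ratio was high. A position that missed the threshold is not shown to be unchanged, and 6 of 107 did.

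In the balanced libraries, A65 had a ratio of 0.978% ± 0.055 (SD, n = 3), which ranked second of 98 listed U4 positions, where the median was 0.087%. First was the cap-adjacent G2, with 7 of 475, 5 of 313 and 2 of 289 reads of T, or 1.25% ± 0.49 (SD, n = 3). The third was C3, the fourth A1 and the fifth C8, each from 2 reads of T over the 3 libraries. The known positions A1, G2, C8 and A65 thus took 4 of the first 5 ranks, though only A65 had more than 10 reads of T in every balanced library, and positions 1 to 3 are also the end of the RNA. A1, C3 and C8 had a balanced row in 1 gene each, at 176 to 307 reads per library. Since 1 read of T is enough for a balanced row, positions with few reads rank high by the listing rule itself.

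Depth under imbalanced dNTP was lower in U4 than over the table, with a local low at A65. In RNU4-2 the imbalanced depth was 2.79%, 6.21% and 8.96% of the balanced depth at A65 in the 3 replicates, and in RNU4-1 it was 6.60%, 6.48% and 11.4%. Over all positions listed in both tables the medians were 50.0%, 66.1% and 71.4%. By an edgeR test of depth, added after the profile had been seen, all 109 U4 positions listed in both tables were lower, against 25.0% of 35761 positions overall. The log2 change was -3.52 ± 0.13 (SE) at A65 of RNU4-2 and -2.96 ± 0.11 in RNU4-1, and -0.54 ± 0.06 and -0.29 ± 0.05 at G125. On the 5′ side of A65 the change in RNU4-2 was smaller again, -2.57 ± 0.14 at G57, and then reached -3.84 ± 0.21 at C3, so A65 was not the lowest position of that gene. Without the replicate number as a block, 61 of the 109 positions were called lower. Neighbouring positions share reads, so these are not separate observations.

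**Figure D2:**
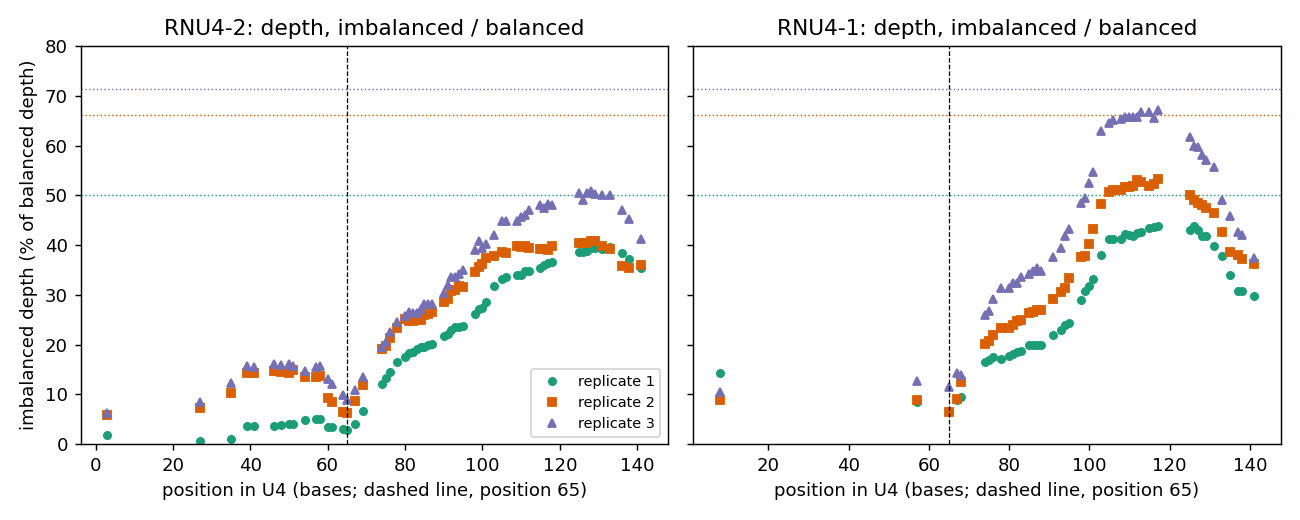
Imbalanced depth as a percentage of balanced depth at each U4 position listed in both tables, for the 3 replicates (symbols) of RNU4-2 (left) and RNU4-1 (right). Dotted lines mark each replicate's median over all positions listed in both tables, and the depth has a local low at position 65 (dashed line), 2.79% to 8.96% in RNU4-2, where it falls again toward position 3.

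In RNU4-2 replicate 1 stood apart on the 5′ side of A65, where its median share of balanced depth was 3.64%, against 13.6% and 15.6% in the others. Without replicate 1 all 109 positions were still lower. In RNU4-1 only 2 positions on that side were listed in both tables.

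With both U4 genes summed, the median ratio was 6.16% at the 5 U4 positions with U on both sides, 4.16% at 14 with U on the 5′ side, 2.65% at 11 with U on the 3′ side and 1.75% at 38 with none. Over all 30226 positions with 100 or more reads in each imbalanced library these medians were 5.54%, 4.23%, 2.73% and 1.74%. G57, G125, A39, A54 and C133, the 5 highest of the other positions, all follow a U, while A65 has no U beside it. In single libraries the order did not always hold, since in replicate 3 of RNU4-2 the median with U on both sides (4.28%) was below that with U on the 5′ side (4.48%), and in replicate 1 that with U on the 3′ side (1.35%) was below that with none (1.53%). These are descriptions, with no test.

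Under imbalanced dNTP, mismatches other than T were rarer than T in both U4 genes, but under balanced dNTP they were more common. At A100 of U4, where N6-methyladenosine is known, they were 0.81% ± 0.44 (SD, n = 3) of reads in RNU4-1 and 0.44% ± 0.45 in RNU4-2 under imbalanced dNTP. Over the A positions of the same genes they were 0.60% ± 0.04 and 0.48% ± 0.09, so A100 did not stand out at this depth.

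Of 1304 annotated copies of U6 outside the members, 20 had rows under imbalanced dNTP (80 rows) and 41 under balanced dNTP. At depth of at least 10, 22 of 61 copy positions (36.1%) were called, against 26.7% of all positions, and at depth of at least 100, 7 of 10 were, against 75.8%. This reading was added after the U6 genes had been found without imbalanced rows.

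The base of a copy differed from that of U6 at 6 of the 80 rows, and at 3 of these the U6 base is itself T. There nearly all reads carried T, with 8 of 10, 8 of 10 and 11 of 11 at position 40 of RNU6-1279P (called), 10 of 10, 9 of 9 and 8 of 9 at position 40 of RNU6-546P, and 10 of 10, 9 of 9 and 5 of 5 at position 107 of RNU6-490P. Reads listed at a copy can thus carry the base of U6, and whether reads at the copies came from U6 or from another copy was not tested. The ratios below are of positions where the copy has the U6 base.

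At A47, the position guided by SNORD7, RNU6-958P had 61 of 91, 58 of 91 and 64 of 97 reads of T, or 65.6% ± 1.68 (SD, n = 3). RNU6-27P had 22 of 25, 17 of 28 and 27 of 38 (73.3% ± 13.8), and RNU6-94P had 5 of 29, 12 of 26 and 5 of 22 (28.7% ± 15.4). RNU6-1084P had 4 of 17, 6 of 13 and 8 of 13 (43.7% ± 19.1). These 4 were all the known positions with a depth of at least 10, and A47 was called in each. Of these 4 copies, only RNU6-1084P had a balanced row for A47, with 1 of 104, 1 of 60 and 0 of 78 reads of T. In the others the balanced ratio was taken as 0, so the criterion on that ratio could not fail there. RNU6-958P and RNU6-94P had no balanced row at any position. The lowest depth in a listed row was 5 reads, so a missing row may also mean too few reads. A47 thus has no balanced measurement in RNU6-958P, RNU6-27P and RNU6-94P. Further copies, such as RNU6-1140P, had a balanced row for A47 and no imbalanced row. At G72, RNU6-761P had 59 of 86, 40 of 57 and 49 of 70 reads of T under balanced dNTP. RNU6-1195P had 0 of 96, 0 of 92 and 1 of 123 there. Neither copy had imbalanced rows, and the origin of the T reads in RNU6-761P was not tested.

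Within RNU6-958P, the 14 other positions at that depth had a median of 2.78% and a highest mean of 10.6%, at position 36. Within RNU6-27P, the 7 others had a median of 5.45% and a highest mean of 16.9%, at position 20. The other 2 copies had no other position with the U6 base at that depth. Over all copies, the 55 other positions had medians of 6.25%, 4.35% and 7.02%, and 1 of them, A100 of RNU6-490P, was high at 42.6%, from 12 of 24, 11 of 19 and 3 of 15 reads.

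**Figure D3:**
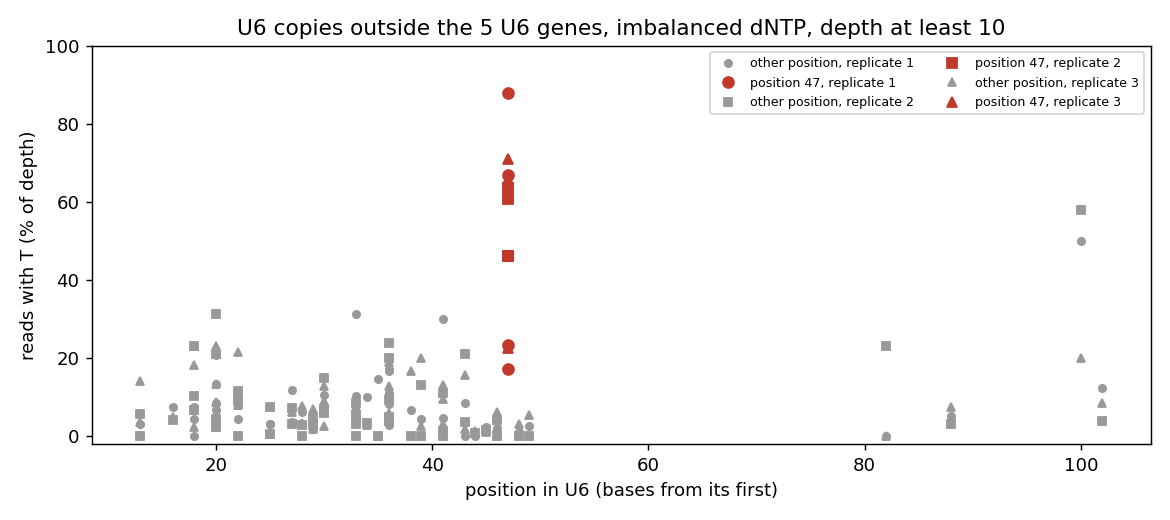
Share of reads with T (% of depth) under imbalanced dNTP against the position in U6, at positions of U6 copies with the U6 base and a depth of at least 10, for the 3 libraries (symbols). Position 47 (red) reached 17.2% to 88.0% in 4 copies, while A100 of RNU6-490P reached 57.9% among the other positions (grey).

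At lower depth, where the listing rule by itself makes ratios high, A53 had 4 of 6, 4 of 6 and 5 of 5 reads in RNU6-27P, and A70 of a copy named U6 on chromosome 3 had 3 of 7, 2 of 6 and 7 of 12. That A70 had 3 of 76, 2 of 38 and 4 of 68 under balanced dNTP. C77 of the same copy had 3 of 5, 2 of 6 and 6 of 7 under imbalanced dNTP. In RNU6-792P, A53 had 3 of 10, 4 of 8 and 3 of 8, and G54 had 3 of 10, 2 of 8 and 1 of 8. In RNU6-546P, A53 had 1 of 6, 5 of 5 and 2 of 5, and G54 had 4 of 6, 3 of 5 and 2 of 5. C63 of RNU6-94P had 10 of 17, 1 of 15 and 3 of 6. The 3 copies with the highest summed depth were RNU6-958P, RNU6-1195P, which had balanced rows only, and RNU6-23P. RNU6-23P had 12 imbalanced rows, none at a known position, and 5 of them were called. Over all positions with a depth of at least 10, 26.7% were called. Of 95 annotated U4 copies outside the members, 3 had imbalanced rows, 16 in all and 7 called. All 7 were among the 14 rows of RNU4-58P, each with a depth of at least 10, against the same 26.7%.

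Of the guide RNAs of the known sites, 6 of 7 had imbalanced rows and 3 had called positions. These were 98 of 105 in SNORD10, all of them with a depth of at least 100, where 75.8% of all positions were called, and 2 of 18 in SNORD8 and 1 of 19 in SCARNA17 at depth of at least 10, where 26.7% were. SNORD7, which guides A47 of U6, had none. Of 9 modification factors, NOP56 and NOP58, core proteins of box C/D particles, had 149 and 97 called positions, of which 148 and 97 lay in small RNA genes inside these genes. At depth of at least 100, 93.6% and 74.8% of their positions were called, against the same 75.8%. The other 7, among them FBL (fibrillarin) and the U6 adenosine methyltransferase METTL16, had no row, nor did any of the 12 U4/U6 particle proteins under imbalanced dNTP. For the identity of the cells, 5 of 7 liver markers had imbalanced rows, led by APOB with 6226, and 0 of 5 markers of other cell types did.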

How the data were processed

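Chromatin-associated RNA of HepG2 cells was read in 3 libraries per group, and no sample was left out. Per the study's methods, the authors trimmed reads with Cutadapt, removed duplicates by molecular identifier, aligned to hg38 with TopHat2, keeping up to 4 alignments per read, with JACUSA for base calling. What they deposited are whole-number counts of reads with each base at each position. Per the file headers, the authors also gave a score per position, which was not used. Summed depth ranged from 17063930 to 34367262 over the libraries, positions overlapping reads several times. Members came from GENCODE v44 on hg38, and copies were aligned to the member sequences with Biopython 1.88.

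Ratios were computed per library. edgeR 4.0.16 (R 4.3.3) fitted mutated and unmutated reads with terms for library, replicate block and dNTP group, with Benjamini-Hochberg adjustment over all positions. The block rests on the extract protocol in the labels, by which each ligated product was shared between both reactions. Depth deviations of same-numbered libraries had correlations of 0.746, 0.590 and 0.871. Those of imbalanced 1 with balanced 2 and imbalanced 2 with balanced 1 were 0.699 and 0.599, so the depths alone did not tell pairs 1 and 2 apart. DESeq2 1.42.0, Fisher's exact test and other alternatives are in the closing section. The fit was tested on simulated data, where it called too few positions when mutated reads were near 0 in all libraries, so a missed call carries no information. Named positions were all known ones, the 5 others with the highest ratio, base-modified positions and the 3 deepest copies. Members, lists and tests were chosen with earlier results of these data known. Intervals are 95% Wilson and cover counting error only. The U6 sequences are not reported here.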

Additional observations from a re-analysis of the deposited data

How the results depend on the processing

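The number of U4 positions with a higher ratio, 101 in the fit reported, was 102 without the replicate block, 103 with no depth filter, 93 at depth of at least 50, 98 with DESeq2, 65 by Fisher's exact test in each replicate and 19 with TMM factors, and leaving out one replicate gave 87 to 91. The 101 were all among those without the block and without the depth filter. With TMM factors 11 of the 101 had a log2 change below 0, none called. C113 of RNU4-1, not among the 101 and T in RNU4-2, was called lower at -3.07 with these factors. The 78 called positions fell to 8 with a ratio of at least 0.05 and to 4 with at least 0.1, were 57 to 78 under the other thresholds, and were 81 to 89 without one replicate. The difference between known and other medians moved from 6.71 to 9.88 percentage points at depth of at least 50, where C8 is lost, and was 5.76 to 8.28 without one replicate. Of the 109 U4 positions with lower depth, 61 passed without the replicate block, and all 109 passed without TMM factors and without each replicate. The ratio of A65 was 10.7% in the gene with the highest summed depth and 12.1% over both. The difference of medians kept its direction under each alternative run. Depth limits C8, which rests on 17 to 42 reads per library. The U6 genes had no imbalanced rows, so their depth there is unknown.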
